A study of Homo sapiens with 2 samples.

Results

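The lysine crotonylation peaks of 8 very long human genes, FHIT, WWOX, IMMP2L, MACROD2, LRP1B, CSMD1, CTNND2 and TENM4, were examined in T98G cells, an established glioblastoma line, after crotonate. There was 1 ChIP library, in which chromatin was precipitated with a pan-Kcr antibody, one that binds crotonylated lysine whatever the protein, and 1 input library of chromatin that was not precipitated. Both came from cells given crotonate for 48 h. A dose of 10 µM is stated in the deposited design text. Control cells are not analysed here, and 1 ChIP library gives neither a replicate error nor a test of the treatment. A peak was counted to a gene when the authors' annotation gave it that gene symbol, or placed it in an intron or exon of that gene. By this rule 56 of the 10041 listed peaks belonged to 7 of the 8 genes, and IMMP2L had none. FHIT, CTNND2 and TENM4 had been selected on their many peaks in this list, so their numbers of peaks are a description. The other 5 genes were chosen for their length and their fragile sites, but with earlier results of these data known. By gene symbol alone FHIT had 10 peaks, and CTNND2 and TENM4 had 7 each. Of the genes not taken, CREB5 had 8 by symbol, and IQSEC1, NTRK3 and RIMS2 had 7 each, the same as CTNND2 and TENM4, while 7 protein-coding genes had 6.

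Common fragile sites are stretches of the genome that form gaps and breaks on metaphase chromosomes when DNA replication is slowed. Many lie in very long genes, which are copied late and from few origins, and their deletions are frequent in tumours. FHIT lies across the fragile site FRA3B and WWOX across FRA16D. Crotonyl groups on histone lysines are added by acetyltransferases such as EP300 and are usually found at active promoters and enhancers. Of the 8 genes, 4 encode enzymes. FHIT is a hydrolase of diadenosine polyphosphates, WWOX an oxidoreductase with WW domains, MACROD2 a hydrolase that removes ADP-ribose from proteins, and IMMP2L a peptidase of the inner mitochondrial membrane. The other 4 encode proteins of the cell surface or of cell contacts. LRP1B is an endocytic receptor of the LDL receptor family, CSMD1 a membrane protein that restrains complement, CTNND2 a catenin of neuronal junctions, and TENM4 a teneurin, a cell adhesion protein.

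Each of these peaks rested on few fragments. The fold enrichment is the authors' ratio over the caller's background. Read with the p-value by an assumed formula, it gives the number of ChIP fragments stacked at the summit of a peak. The caller was not given, so its use of this formula could not be checked. Of the 56 peaks, 47 held 2 fragments, 8 held 3 and 1 held 4. An exact 95% Poisson interval runs from 0.242 to 7.22 for a count of 2 and from 0.619 to 8.77 for a count of 3, for counting error only. The smallest q of the 56 was 0.318, against 0.0557 over the other peaks, and 48 of the 56 had a q of 1. No peak of the list had a q under 0.05.

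The only peak of the promoter class (within 3 kb of a transcription start of its assigned gene) among the 56 was that of TENM4, against 21.4% of all 10041 peaks. The rule admits gene body peaks through the annotation and so sets much of this difference. By position, 3 of the 51 summits inside the 8 genes were of the promoter class (5.88%, exact binomial 95% interval 1.23 to 16.2%), against 22 of 241 (9.13%, 5.81 to 13.5%) in 64 other protein-coding genes of at least 1000 kb, and these intervals overlap. In the RefSeq start windows, 250 bases before a transcription start, 9 windows of 6 of the genes held no peak, where 0.299% of all 35116 windows held one, so that 9 windows show nothing particular to these genes. The windows of TENM4 and FHIT are shown because their peaks were nearest to a gene start. They are given from GRCh38.p14, 5′ to 3′ on the minus strand, with each CG in capitals. They are, in order, that of TENM4 at chr11:79441031-79441280, the FHIT start at the gene's 5′ end at chr3:61251453-61251702 and an internal FHIT start at chr3:60080910-60081159.
TENM4: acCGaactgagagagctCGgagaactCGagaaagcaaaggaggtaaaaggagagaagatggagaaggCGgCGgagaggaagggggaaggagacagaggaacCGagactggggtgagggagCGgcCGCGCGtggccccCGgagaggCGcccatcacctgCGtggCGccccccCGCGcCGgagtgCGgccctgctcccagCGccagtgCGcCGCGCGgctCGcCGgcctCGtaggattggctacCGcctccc
FHIT, 5′ end: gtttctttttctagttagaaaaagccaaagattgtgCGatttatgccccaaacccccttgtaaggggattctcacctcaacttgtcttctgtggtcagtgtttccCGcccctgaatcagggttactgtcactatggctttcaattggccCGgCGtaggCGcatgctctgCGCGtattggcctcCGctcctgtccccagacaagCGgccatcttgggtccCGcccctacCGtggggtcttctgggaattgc
FHIT, internal: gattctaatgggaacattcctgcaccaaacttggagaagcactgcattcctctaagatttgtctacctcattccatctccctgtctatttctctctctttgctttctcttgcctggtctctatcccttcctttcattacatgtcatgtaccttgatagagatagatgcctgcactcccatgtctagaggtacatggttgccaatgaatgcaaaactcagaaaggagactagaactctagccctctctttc
The TENM4 window held 27 CG dinucleotides, a number reached by 17.7% of the RefSeq windows. The FHIT window at the 5′ end held 11, the median over all windows, and the internal FHIT window held none. The TENM4 peak had its summit 1.9 kb before the start of the gene, outside the printed window, from 79442807 to 79443123 on chromosome 11. It held 2 fragments at a fold enrichment of 2.73. The FHIT peak nearest to the gene's start was intronic, from 61247411 to 61247671 on chromosome 3, and its summit lay 3.9 kb inside the gene.

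FHIT had the most peaks of the 8 genes, 13 by the rule (exact Poisson 95% interval 6.92 to 22.2). Of these, 10 lay inside the gene, which is 1504 kb long, and 3 upstream of it. Around the 5′ end lay 5 peaks. Their summits stood 58.4, 56.4 and 29.4 kb before the gene start and 3.9 and 10.8 kb after it. The peak at 56.4 kb, from 61307651 to 61308003, was the tallest of all 56, with 4 fragments and a fold enrichment of 4.54. The one at 3.9 kb, in intron 1, had 3 fragments and 3.62, and the other 3 had 2 fragments and 2.54 to 2.72. After these came 435 kb without a peak. The remaining 8 lay from 445.6 to 1301.2 kb, with 1 in intron 4, 5 in intron 5 and 2 in intron 7 of a transcript with 9 introns. In intron 5 the fold enrichments were 2.63, 2.68, 3.39, 2.73 and 2.54 in the direction of transcription. The peak of 3.39, from 60315499 to 60315882, was the only one of the 5 with 3 fragments.

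WWOX, with 1113 kb, showed how much the count depends on the assignment. By gene symbol it had 1 peak, by the rule 6 (2.20 to 13.1), and 8 summits lay inside the gene. The peak that carried its symbol was in intron 5 of 7, from 78398040 to 78398335 on chromosome 16, with 3 fragments and a fold enrichment of 3.39. The other 5 by the rule had 2 fragments each, at 2.54 to 2.73, and lay in introns 4 and 7. Intron 7 alone held 4 of the 6. The 2 further peaks inside WWOX were annotated to promoters of genes nested in it. One, of 3 fragments at 3.64, lay from 79080630 to 79080900 and was assigned to AC009145.3, a long noncoding RNA. The other, of 2 fragments at 2.73, was assigned to AC046158.3, a transcript of the annotation type TEC. Both were placed 2 to 3 kb from the start of the nested gene.

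MACROD2, 2058 kb long, had 9 peaks, all inside the gene, and 1 by symbol. All 9 held 2 fragments, with fold enrichments from 2.53 to 2.73. The first summit stood 667.3 kb after the start, with none before it. Intron 5 of 16 held 4 peaks, at 816.0, 839.2, 949.2 and 978.7 kb. Intron 8 held a pair 3.44 kb apart, from 15590164 to 15590698 and from 15593719 to 15594107 on chromosome 20.

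IMMP2L, 900 kb long, had no peak by symbol. Without a paired identifier the annotation could not be searched for it. Its count of 0 by the rule allows up to 3.69 (exact Poisson 95%). A search by position found 1 summit inside it, 165.4 kb after its start. That peak, from 111396925 to 111397333 on chromosome 7, had 3 fragments and a fold enrichment of 3.64. It was annotated to the promoter of the processed pseudogene AC003989.2, 2050 bp from its start. The next listed summits on either side were 783 kb away towards and past the 3′ end of IMMP2L and 270 kb away beyond its 5′ end.

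LRP1B, 1900 kb long, had 6 peaks, all in introns, with 2 fragments in 5 and 3 in 1. The peak of 3 fragments lay in intron 22 of 90, from 140905208 to 140905629 on chromosome 2, at a fold enrichment of 3.64. The first 3 peaks of the gene lay 261.9, 340.5 and 503.8 kb after its start, in introns 1 and 2. A stretch of 722 kb without a peak followed them.
CSMD1, the longest of the 8 with 2060 kb, had 7 peaks, each of 2 fragments. Their fold enrichments were 2.73 in 5 and 2.54 in 2. The first summits lay 4.8 and 59.9 kb after the start, in intron 1. Another 2 lay 3.84 kb apart, and the longest stretch without a peak was 740 kb.

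CTNND2, 933 kb long and selected on its peaks, had the highest share of taller peaks among the 8 genes by the rule. Of its 7 peaks, 4 held 3 fragments, where all 56 peaks included 9 of 3 or more. Over all 10041 peaks 25.8% held 3 or more, and over the other peaks of chromosome 5 the share was 28.5%. A share of 7 peaks is imprecise, and no interval was computed for it. A pair in intron 12 of 21 lay 3.37 kb apart, from 11141989 to 11142402 and from 11145318 to 11145842 on chromosome 5. Both had 3 fragments, at fold enrichments of 3.39 and 3.63. Another peak of 3 fragments at 3.39 lay upstream of the gene, its summit 16.7 kb before the start. The fourth, in intron 1, had a fold enrichment of 2.94, and the recovered background there, 0.359 fragments, was the highest at any of the 56 peaks. Only 4 of the 7 peaks lay inside the gene, 2 being upstream and 1 downstream of it.
TENM4, the shortest of the 8 with 788 kb, had 8 peaks, all of 2 fragments, at fold enrichments from 2.53 to 2.73. Inside the gene lay 6, of which 2 were in intron 6 and 2 in intron 12 of 33. The other 2 lay upstream, with summits 1.9 and 28.7 kb before the start.

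**Figure D1:**
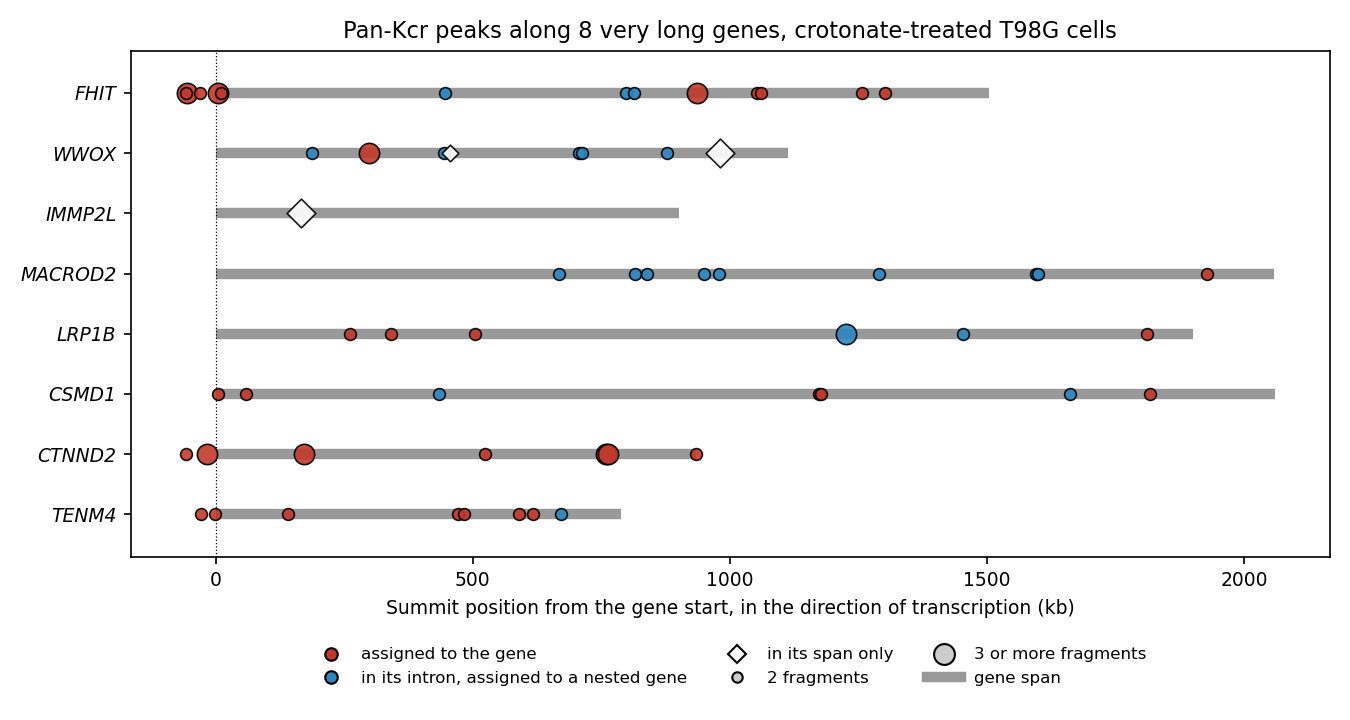
Summits of the peaks of each gene, in kb from the gene start in the direction of transcription. Grey bars are the gene spans, red points peaks assigned to the gene, blue points peaks in its introns assigned to a nested gene, diamonds peaks inside the span by position only, and large symbols mark 3 or more fragments. FHIT shows 5 peaks around its start and the other 8 after a stretch of 435 kb, and IMMP2L holds 1 diamond.

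The gene named for a peak was often not the gene that held it. Of the 56 peaks, 35 carried the symbol of a member and 21 lay in a member's intron but were assigned to another gene with a nearer start. These 21 were assigned to 17 genes, all inside the member. Of the 21 peaks, 9 were assigned to processed pseudogenes, 8 to long noncoding RNAs, 2 to transcripts of type TEC, 1 to a ribosomal RNA pseudogene and 1 to a small nucleolar RNA. MACROD2 lost 8 of its 9 peaks in this way and WWOX 5 of 6, while CTNND2 lost none of 7. The selection of FHIT, CTNND2 and TENM4 by symbol therefore did not order the 8 genes by the number of peaks inside them. By position FHIT held 10, MACROD2 9, WWOX 8, CSMD1 7, LRP1B and TENM4 6 each, CTNND2 4 and IMMP2L 1. The exact intervals of neighbours in this order overlapped.

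**Figure D2:**
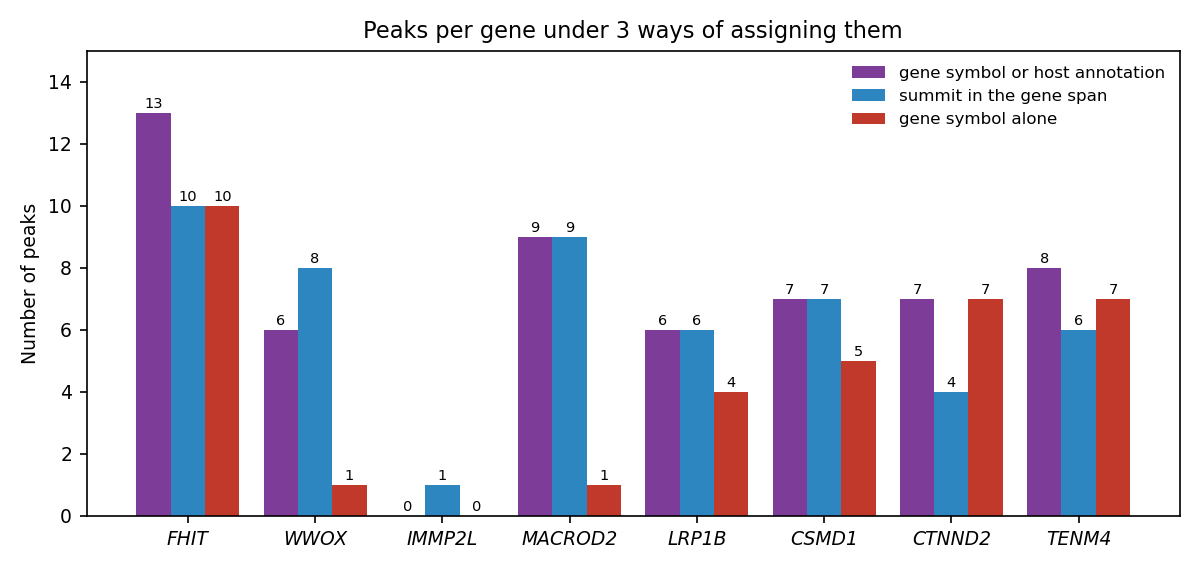
Number of peaks of each gene by gene symbol or host annotation (purple), by summit position inside the gene (blue) and by gene symbol alone (red). WWOX has 6, 8 and 1 and MACROD2 9, 9 and 1, while CTNND2 has 7, 4 and 7.

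The number of peaks per 100 kb takes the length of a gene into account. By the rule, the 8 genes had 0.498 peaks per 100 kb (exact Poisson 95% interval 0.376 to 0.646). The highest rate was that of TENM4, 1.01 (0.438 to 2.0), followed by FHIT with 0.864 (0.460 to 1.48) and CTNND2 with 0.751 (0.302 to 1.55). These are the 3 genes that were selected on their peaks. Their counts by the rule also include peaks outside the gene, 2 for TENM4 and 3 each for FHIT and CTNND2. WWOX had 0.539 (0.198 to 1.17), MACROD2 0.437 (0.200 to 0.830), CSMD1 0.340 (0.137 to 0.700) and LRP1B 0.316 (0.116 to 0.687). The rate of IMMP2L was 0, with an upper limit of 0.410. The intervals of neighbours in this order overlapped. By the rule, the upper limit of IMMP2L lay below the lower limits of TENM4 and FHIT, both selected on their peaks. By position the rates were 0.761 (0.279 to 1.66) for TENM4, 0.719 for WWOX and 0.665 (0.319 to 1.22) for FHIT. MACROD2 had 0.437 by position, CTNND2 0.429 and IMMP2L 0.111 (0.00281 to 0.619). The interval of IMMP2L then overlapped those of TENM4 and FHIT.
Other genes were compared by position. Inside the 8 genes there were 51 summits, or 0.453 per 100 kb (0.337 to 0.596), against 241 or 0.277 (0.243 to 0.314) in 64 other protein-coding genes of at least 1000 kb. Against the 34 such genes on the same 8 chromosomes, with 147 summits or 0.328 (0.277 to 0.385), the intervals overlapped. The members CTNND2, IMMP2L and TENM4 are themselves shorter than 1000 kb. In 306 other protein-coding genes of at least 500 kb the rate was 0.328 (0.306 to 0.351), and that interval also overlapped that of the 8 genes. The 5 members not selected on peaks had 0.386 (0.262 to 0.548), an interval that overlaps that of the other long genes, and the same rate as all other protein-coding genes, 0.386 (0.375 to 0.397). The 3 selected members had 0.620 (0.379 to 0.958). Having a peak at all said little at this length. A summit lay inside all 8 members, inside 95.7% of the 69 genes of at least 1000 kb and inside 17.1% of 19974 protein-coding genes. Of those 69 genes WWOX had the highest rate by position, 0.719 (0.310 to 1.42). FHIT, selected on its peaks, ranked 3 with 0.665, MACROD2 12, CSMD1 24 and LRP1B 28. PTPRT, a receptor tyrosine phosphatase, had 0.691, the cadherin CDH18 0.634, the teneurin TENM2 0.623, KAZN 0.571 and AGBL4 0.533. GPHN, which encodes the scaffold protein gephyrin, and the transcription factor SOX5 had no summit inside. The first rank of WWOX depends on the limit of 1000 kb, since ERC2, with 960 kb, had 1.04.

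**Figure D3:**
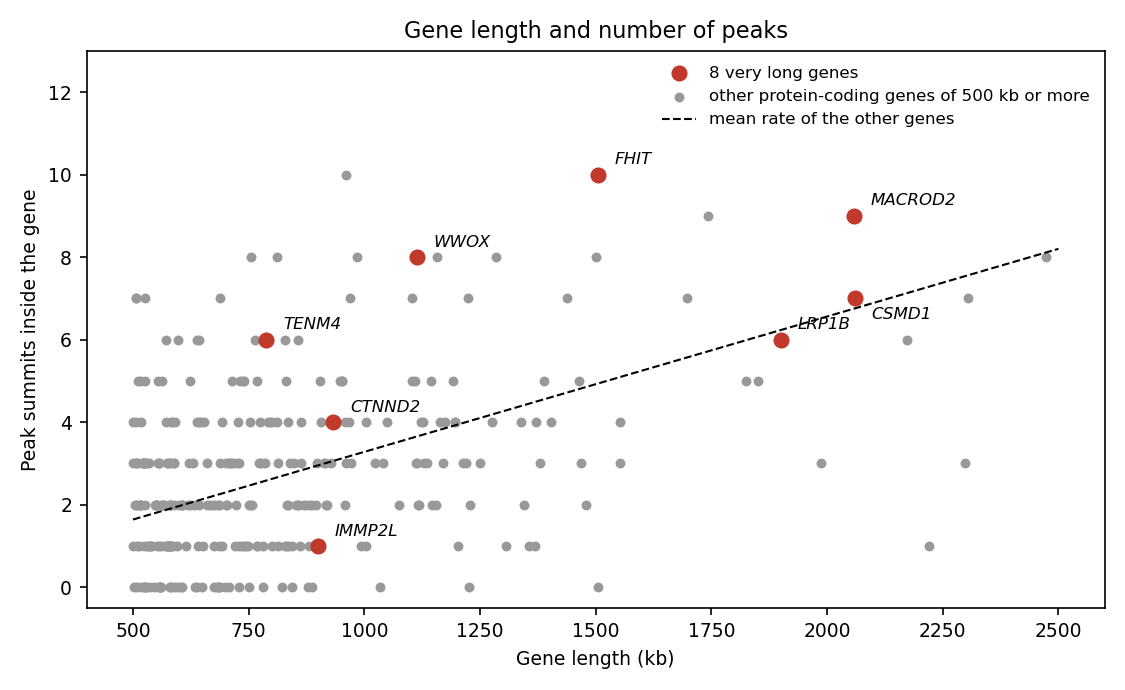
Gene length in kb and number of peak summits inside the gene, for the 8 genes (red) and 306 other protein-coding genes of at least 500 kb (grey). The dashed line is the mean rate of the other genes, 0.328 per 100 kb. FHIT with 10 and WWOX with 8 lie above the line and IMMP2L with 1 below it.

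The members were also set beside protein-coding genes next to them in length. For FHIT, WWOX, MACROD2, LRP1B and TENM4 the neighbours given here held fewer summits than the member, FHIT and TENM4 having been selected on their peaks. FHIT held 10, against 8 in AGBL4. WWOX held 8, against 3 in the neuregulin NRG3. MACROD2 held 9, against 7 in CSMD1 and 3 in EYS, and LRP1B held 6, against 3 in EYS and 5 in CTNNA3. TENM4 held 6, against 4 in RYR2, a calcium channel, and 3 in SHANK2, a synaptic scaffold. The other members lay between or below their neighbours. CSMD1 held 7, against 6 in DLG2 and 9 in MACROD2, and CTNND2 held 4, against 5 in EPHA6 and 3 in PCDH9. IMMP2L held 1, against 1 in FRMPD4 and 3 in NLGN1. In every comparison given here the exact Poisson intervals of the rates per 100 kb overlapped.

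Chromosomes differ in the density of listed peaks in this aneuploid line, so each gene was also set against the rest of its own chromosome, over the stretch that listed peaks cover. No member stood apart beyond counting error. The ratio of the rate inside the gene to that of the rest of the chromosome was 1.76 for TENM4 (exact 95% interval 0.643 to 3.85), 1.70 for WWOX (0.728 to 3.38) and 1.56 for FHIT (0.745 to 2.88). It was 1.03 for CTNND2 (0.280 to 2.65), 0.969 for CSMD1 (0.388 to 2.01) and 0.912 for LRP1B (0.334 to 1.99). MACROD2 had 0.581 (0.264 to 1.11), with 0.437 summits per 100 kb inside the gene and 0.752 on the rest of chromosome 20. IMMP2L had 0.275 (0.00695 to 1.54). Every one of these intervals includes a ratio of 1. At the rates of their chromosomes the 8 genes would hold 51.3 summits, and 51 were found. For the 5 not selected on peaks 37.6 would be held, and 31 were found.
The surroundings gave another order. Against the 2 Mb on each side, the ratio was 2.05 for FHIT (0.803 to 5.05), 1.80 for LRP1B (0.501 to 6.27) and 1.38 for TENM4 (0.459 to 3.52). It was 1.24 for CSMD1, 1.03 for WWOX, 0.715 for CTNND2, 0.673 for MACROD2 and 0.247 for IMMP2L, all with intervals that include 1. WWOX thus had a rate of 0.719 inside the gene and 0.700 in its flanks, against 0.423 on the rest of chromosome 16.

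**Figure D4:**
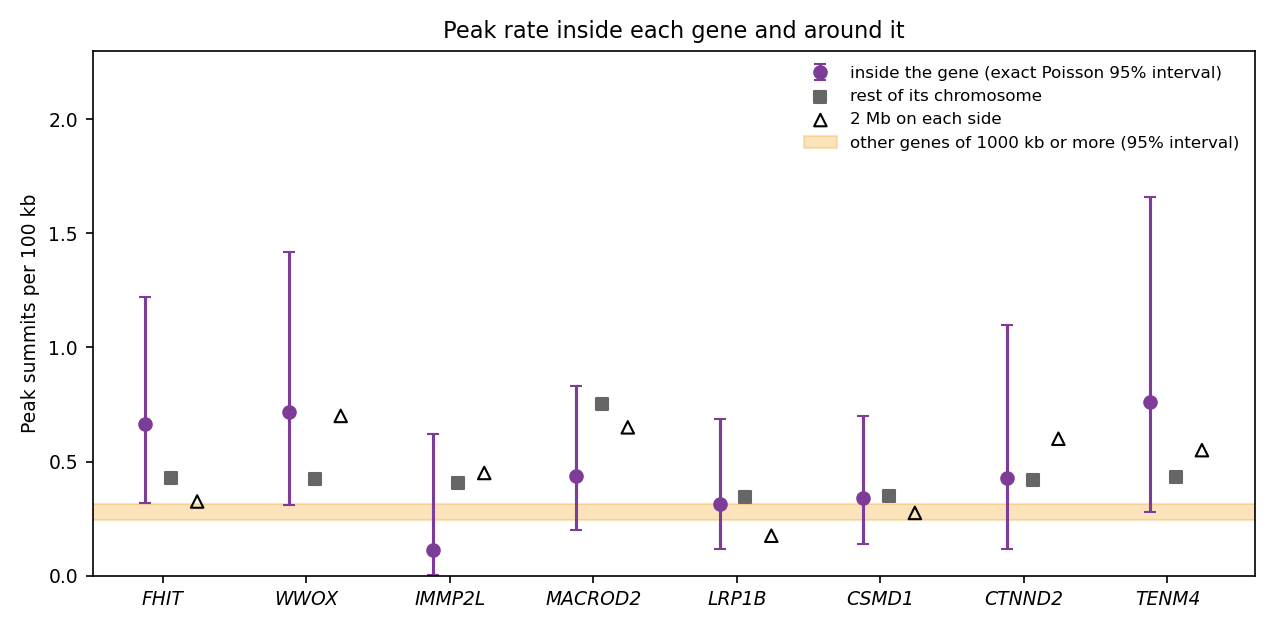
Peak summits per 100 kb inside each gene (purple, with exact Poisson 95% intervals), on the rest of its chromosome (grey squares) and in the 2 Mb on each side (triangles). The band is the 95% interval of 64 other genes of at least 1000 kb, 0.243 to 0.314. WWOX and its flanks lie at 0.719 and 0.700, and MACROD2 at 0.437 lies below the rest of chromosome 20 at 0.752.

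Few peaks of the members held more than 2 fragments. Of the 56, 9 held 3 or more fragments, which is 16.1% (exact binomial 95% interval 7.62 to 28.3%), against 25.8% of all 10041 peaks and 25.8% of the 9985 other peaks (25 to 26.7%). In the 3 genes selected on peaks the share was 25% (7 of 28, 10.7 to 44.9%). In the other 5 it was 7.14% (2 of 28, 0.877 to 23.5%), and its interval lies below the share of the other peaks. By position it was 12.9% in those 5 genes (4 of 31, 3.63 to 29.8%), which includes that share, and 23.7% in the 64 other long genes (57 of 241, 18.4 to 29.5%). MACROD2 had 0 peaks of 3 fragments among 9, while on chromosome 20 35.1% of the other peaks held 3 or more. The median fold enrichment was 2.72 in the members and 2.73 in the other peaks, and the median length 320 and 315 bp.
The background recovered for a peak moves with these values, since at a given number of fragments a higher background lowers the fold enrichment. It was at its lowest value, 0.0999 fragments, in 32.1% of the members' peaks (18 of 56, 20.3 to 46.0%) and in 36.4% of the other peaks. In the 5 genes not selected on peaks it was there in 14 of 28, and in the 3 selected in 4 of 28. In CSMD1 5 of 7 peaks lay at it, in LRP1B 4 of 6, in TENM4 3 of 8, in WWOX 2 of 6, in FHIT 1 of 13 and in CTNND2 none of 7. In MACROD2 3 of 9 lay at it, against 7.92% of the other peaks of chromosome 20. Its part in the differences between the genes was not tested.

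**Figure D5:**
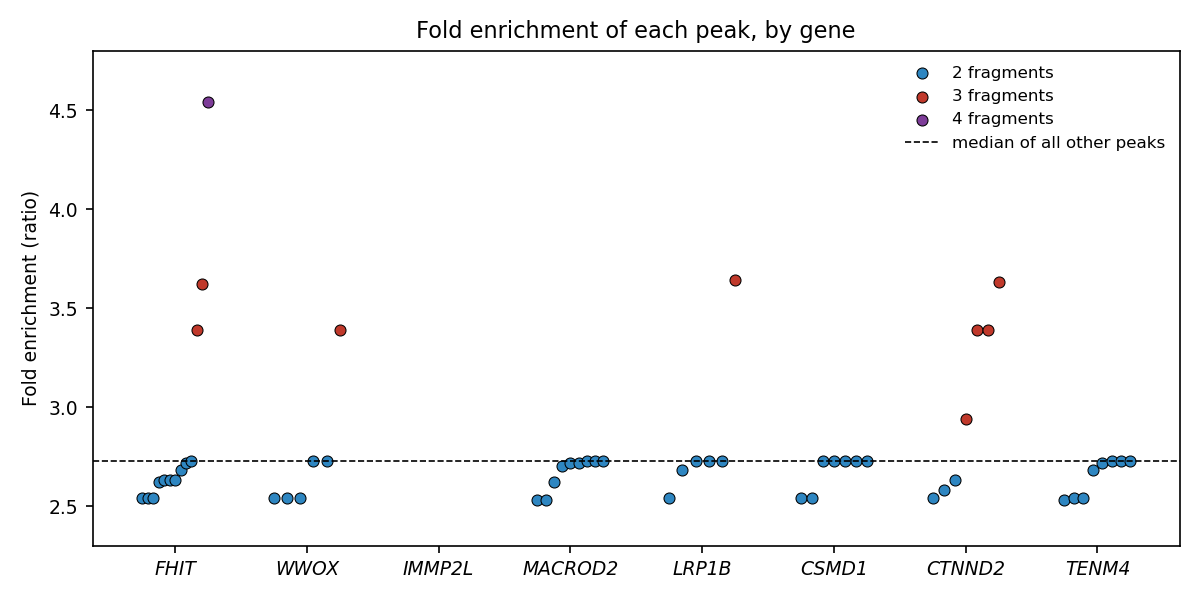
Fold enrichment, a ratio over the caller's background, of each peak counted to a gene by the rule, ordered within the gene and coloured by the number of fragments at the summit. The dashed line is the median of all other peaks, 2.73. The FHIT peak of 4 fragments stands highest at 4.54, and MACROD2, CSMD1 and TENM4 hold no peak above 2.73.

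Peaks of the members often lay close to another. Another listed peak stood within 10 kb of 14 of the 56 (25%, 14.4 to 38.4%), against 7.87% of all 10041 peaks and 7.77% of the other peaks. They formed 7 pairs, of which FHIT had 3, with summits 2.0, 6.93 and 7.39 kb apart. WWOX, MACROD2, CSMD1 and CTNND2 had 1 each, at 6.72, 3.44, 3.84 and 3.37 kb, and LRP1B and TENM4 had none. By position the share was 23.5% inside the members (12 of 51, 12.8 to 37.5%), against 7.05% inside the other genes of at least 1000 kb (17 of 241, 4.16 to 11.1%). FHIT, CTNND2 and TENM4 were selected on the number of peaks, and the part of this selection in the share was not tested. In the 5 genes not selected so, the share was 19.4% (6 of 31, 7.45 to 37.5%), and its interval overlaps that of the other long genes. The peaks of a pair are not independent, so these intervals are too narrow. Whether such pairs are separate sites or 1 broken one cannot be told from the list.
Along the genes, the 51 summits fell 11, 10, 15 and 15 into 4 equal parts of each gene from the 5′ to the 3′ end. FHIT had 5 of 10 in the third, MACROD2 5 of 9 in the second and CSMD1 3 of 7 in the first.

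A list of 38 other large genes at common fragile sites or often deleted with them was chosen with earlier results known. Summits lay in 33 of the 38 (86.8%), against 86.6% of 306 other protein-coding genes of at least 500 kb. The 306 include most of the 38. The 38 genes held 128 summits, 0.283 per 100 kb (0.236 to 0.337), and their median length was 969 kb. Of these summits 30.5% held 3 or more fragments, against 25.8% of all peaks. The tallest by fold enrichment, each of 4 fragments, lay in introns of RORA, a nuclear receptor, at 4.36 and of PTPRG, a receptor tyrosine phosphatase, at 4.24. Next came a promoter-class site of 4 fragments inside CNTNAP2, a neuronal adhesion protein, at 4.06. RBFOX1 also held a peak of 4 fragments, and no fold enrichment in it was above 3.64.
A list of 39 genes comprised relatives of the members in the same protein families, with some of their partners, substrates and receptors. Of these 39, 17 held a summit (43.6%, against 17.1% of all protein-coding genes), with 29 in all. The 39 genes range in length from 2.44 to 1355 kb, so that this share cannot be read apart from length. TENM4 held 6, against 8 in the teneurin TENM2, which is 1285 kb long, and 1 each in TENM3 and TENM1. CSMD1 held 7, against 3 in CSMD3 and 1 in CSMD2, of 4 fragments at 4.50. MACROD2 held 9 in 2058 kb, against 3 in 168 kb of its macrodomain relative MACROD1. Among the LDL receptor relatives of LRP1B, LRP6 held 2, and LRP1, LRP2, LRP4 and LRP5 held 1 each. The catenins CTNND1 and ARVCF held 1 each.
Of 40 genes of the response to replication stress, which guards fragile sites, 10 held a summit (25%, against 17.1% of all protein-coding genes). They were POLD3 at a fold enrichment of 3.46, TOPBP1 at 3.38, ATRIP and ERCC1 at 2.94 each, RAD52 and MCM4 at 2.73 each, RAD1 at 2.63, TP53BP1 at 2.59, FANCD2 at 2.54 and ORC1 at 2.53. RAD52 held 2 summits and the others 1 each, and 4 of the 11 had 3 fragments. The 40 genes had a median length of 49.2 kb, and the 25% cannot be read apart from length. Their rate was 0.479 summits per 100 kb (0.239 to 0.857), an interval that includes the 0.386 of all other protein-coding genes.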

How the data were processed

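Pan-Kcr ChIP-seq of crotonate-treated T98G cells was described from the authors' single peak list, made from 1 ChIP and 1 input library. The deposited values per peak are the fold enrichment, a ratio over the caller's background made by the authors, and the deposited −log10 p-value and −log10 q-value. The aligner, caller, threshold, genome build and library depths were not given in the sources used here. Members and lists were chosen with earlier results of these data known.

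Fragments and background at each summit were recovered by reading fold enrichment as (fragments + 1)/(background + 1) and p as a Poisson tail. Only whole numbers of fragments were tried, and p was recovered within 6.5e-05 on the −log10 scale for all peaks. In data simulated with the same formula the fragments of 1495 of 1495 peaks were recovered. This simulation checks the inversion of the formula and cannot show that the caller used it. Gene spans came from RefSeq GRCh38.p14, on which 455 genes had exactly the span of a listed transcript. Peak coordinates are those of the list. The Ensembl identifier of IMMP2L was not paired with its symbol in the list, so IMMP2L was searched by position. Counts have exact Poisson and shares exact binomial 95% intervals (Clopper-Pearson), for counting error only, and rate ratios exact conditional ones. Some items that the rule names are not reported here. Named were all members, neighbours in length, the 5 other genes of at least 1000 kb with the highest rates and those with no summit, and up to 10 list members by fold enrichment. CREB5, IQSEC1, NTRK3, RIMS2, ERC2, ROBO2 and the lower-ranked relatives are named outside this rule, after their values were seen. Alternatives were other assignments, stricter peaks, merging within 10 kb, other gene lengths, the 5 members not selected on peaks, a 500 kb limit and flanks of 2 Mb. Intervals were computed with scipy 1.17.1, tables with pandas 2.3.3 and numpy 2.4.6, and figures with matplotlib 3.10.9, under Python 3.11.15.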

Additional observations from a re-analysis of the deposited data

How the results depend on the processing

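Every count of these peaks depends on how they are assigned and filtered. With the gene symbol alone, the 8 genes had 35 peaks, 0.311 per 100 kb, with 1 for WWOX and 1 for MACROD2. By position IMMP2L had 1 and CTNND2 4. Fold enrichments at or above the median left 26 peaks, 0.231 per 100 kb, with 4 for FHIT, 3 for WWOX, 3 for MACROD2, 4 for CTNND2 and 3 for TENM4. Peaks of 3 or more fragments numbered 9, 0.08 per 100 kb, with 3 for FHIT, 1 for WWOX, 0 for MACROD2, 1 for LRP1B, 0 for CSMD1, 4 for CTNND2 and 0 for TENM4. These filters keep fewer peaks by construction. The 5 members not selected on peaks had 0.349 per 100 kb, and 7.14% of their peaks held 3 or more fragments. Other genes of at least 500 kb had 0.328 per 100 kb. Merging peaks within 10 kb moved no count by over 1.5 times, gene lengths from the list left the rate within its interval, and the 8 ratios to flanks lay within the intervals of those to chromosomes. No paired analysis was possible because the list comes from 1 ChIP library. Most peaks rest on 2 fragments, which limits the precision of all of these values.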

Other observations

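Counted by position over all 19974 protein-coding genes, FHIT shared the highest number of summits, 10, with ERC2, which encodes a scaffold protein of the presynaptic active zone. FHIT had been selected on its many peaks in this list, so its rank is only a description. ERC2 was picked out after its value was seen. It is 960 kb long and also lies on chromosome 3, and the rate was 0.665 per 100 kb in FHIT and 1.04 in ERC2. MACROD2 came next with 9, as did ROBO2, a receptor of axon guidance, which is 1743 kb long and again on chromosome 3. The rest of chromosome 3 held 0.427 summits per 100 kb.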
